A study of Mus musculus with 23 samples.

Results

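Major urinary proteins are small lipocalins, barrel-shaped carriers that hepatocytes secrete into the blood and the kidney passes into urine, where they bind and slowly release volatile pheromones. Their genes form a cluster of near-identical copies on mouse chromosome 4, and their liver transcripts are among the most abundant in adult males. Pulsed growth hormone acting through Stat5b, androgens, thyroid hormone and glucocorticoids are known to raise them. The transcription factor Zhx2 is known from inbred strains to change the level of some of them.

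The 10 members described here are Mup3, Mup4, Mup7, Mup8, Mup10, Mup17, Mup18, Mup19, Mup20 and Mup21, the rows of the gene count table whose Ensembl IDs carry those symbols, out of 54838 genes listed. The table also holds 12 other Mup genes and 27 Mup pseudogene rows. Bulk liver RNA of C57BL/6J mice was sequenced in 23 libraries of 6 groups. FSTL3 (4 livers), FCN2 (4), EPDR1 (4) and the vehicle of batch 2 (4) form the first set, and LBP (3 livers, numbered 2 to 4) and the vehicle of batch 1 (4) form the second. Each protein was recombinant and was given in 3 injections, 1 day apart, at 1 µg per g of body weight. FSTL3 is follistatin-like 3, a secreted inhibitor of activins; FCN2 is ficolin-2, a lectin that starts complement; EPDR1 is an ependymin-related secreted glycoprotein; LBP is the lipopolysaccharide-binding protein of plasma. The strain was the same in all groups, and the labels give no sex, age, injection route, feeding state or hour of collection, nor whether libraries of 1 group came from separate animals. P-values therefore measure the spread between these libraries.

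Library totals ran between 773499 and 21892416 counts, with a median of 3712802. The FSTL3 libraries held 9298871 to 10930800 counts. The other libraries of batch 2 held 2517701 to 7060707, apart from vehicle replicate 2 at 21892416. Albumin, the main plasma protein made by hepatocytes, took between 5.26% and 8.36% of counts in 22 of the libraries. The library of LBP replicate 2 stood apart, with albumin at 0.211% of counts, and the main Mup results that rest on it are given with and without it. Levels are CPM, a gene's share of its library's counts on a common scale, with library totals scaled by edgeR's TMM factors, and a fold change is a log2 ratio from edgeR's quasi-likelihood fit over all 23 libraries, with its standard error (SE). A gene is called at a Benjamini-Hochberg adjusted p under 0.05 over the 11969 genes tested. All 10 members passed the filter on low counts. In bulk tissue, fewer cells of a type and less RNA per cell cannot be told apart.

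All 10 genes lie on the minus strand of chromosome 4 in GRCm38, as protein-coding genes with 677 to 1391 bases of exon. The lowest coordinate belongs to Mup4 (chr4:59956804-59960710), and the highest to Mup21 (chr4:62147932-62150863). Mup20, which encodes darcin, a male pheromone protein (chr4:62050234-62054158), and Mup3 (chr4:62083476-62087342) lie beside Mup21 at that end, and Mup7, Mup8, Mup10, Mup17, Mup18 and Mup19 lie between Mup4 and Mup20. How far reads can tell the copies apart was measured as the share of 50-base windows of a gene's annotated transcripts that occur in no other gene. It was 86.7% for Mup3, 87.6% for Mup4 and 80.7% for Mup21, and 49.5% for Mup20, which shares most with the pseudogene row Mup-ps19. It was only 23.5% for Mup10, 21.9% for Mup17, 13.3% for Mup7, 12.5% for Mup8, 10.4% for Mup18 and 0% for Mup19, whose windows were shared most with Mup9. The longest open reading frames of Mup10 and Mup18 were 99.1% identical, and those of Mup7 and Mup8 99.0%, against 94.8% for Mup3 and Mup21. The separate values of Mup7, Mup8, Mup10, Mup17, Mup18 and Mup19 are thus uncertain, because the split of shared reads between copies is set by the authors' counting, and the sum of all 10 is given beside them.

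The promoters also differ between members, and the 250 bases before the annotated start are shown for 5 members, to show how far these copies share their upstream sequence. They come from RefSeq on GRCm38.p6, minus strand, which gave promoters for 8 members (none for Mup8 and Mup20). Capitals mark TATATAA, an A/T-rich core promoter element, and TTATGNAA, a loosened form of the D-box. The D-box itself, TTATGTAA, is bound by clock-controlled PAR-bZIP factors such as Dbp and Tef. The TTATGNAA matches shown read TTATGAAA, and whether such factors bind this form was not tested. Mup19 (chr4:61782225-61782474) and Mup17 (chr4:61595833-61596082) stand for the central copies, Mup4 (chr4:59960668-59960917) for one end of the cluster, and Mup3 (chr4:62087318-62087567) and Mup21 (chr4:62150842-62151091) for the other.
Mup19: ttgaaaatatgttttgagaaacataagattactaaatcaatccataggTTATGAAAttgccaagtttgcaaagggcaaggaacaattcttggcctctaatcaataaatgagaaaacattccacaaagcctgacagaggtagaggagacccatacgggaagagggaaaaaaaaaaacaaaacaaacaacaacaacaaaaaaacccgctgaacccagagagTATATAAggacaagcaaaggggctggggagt
Mup17: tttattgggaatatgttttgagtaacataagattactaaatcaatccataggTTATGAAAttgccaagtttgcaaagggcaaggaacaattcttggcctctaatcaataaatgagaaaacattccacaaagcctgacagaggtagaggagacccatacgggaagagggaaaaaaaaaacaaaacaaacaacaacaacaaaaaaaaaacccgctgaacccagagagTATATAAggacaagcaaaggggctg
Mup4: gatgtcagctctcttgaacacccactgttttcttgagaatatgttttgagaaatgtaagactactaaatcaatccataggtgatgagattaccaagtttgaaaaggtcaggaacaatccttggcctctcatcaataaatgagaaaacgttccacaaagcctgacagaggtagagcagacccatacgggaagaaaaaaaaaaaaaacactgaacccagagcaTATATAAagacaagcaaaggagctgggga
Mup3: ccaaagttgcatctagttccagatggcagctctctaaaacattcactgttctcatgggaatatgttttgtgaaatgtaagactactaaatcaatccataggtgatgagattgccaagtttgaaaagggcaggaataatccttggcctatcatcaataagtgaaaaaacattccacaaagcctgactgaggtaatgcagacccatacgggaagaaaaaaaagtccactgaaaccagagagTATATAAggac
Mup21: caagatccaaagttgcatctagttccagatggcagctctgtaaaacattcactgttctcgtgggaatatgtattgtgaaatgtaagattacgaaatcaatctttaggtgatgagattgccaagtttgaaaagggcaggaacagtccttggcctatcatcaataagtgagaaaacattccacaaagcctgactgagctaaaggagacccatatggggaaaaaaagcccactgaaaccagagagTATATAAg

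Aligned over windows of 300 bases that also hold the first 50 bases after the start, Mup17 and Mup19 were 94.5% identical and Mup3 and Mup21 90.2%, while Mup17 and Mup3 were 63.0% identical. Mup4 was 73.5% identical to Mup17 and 77.6% to Mup3, and Mup7, whose annotated start lies further upstream, was 36.3% to 50.4% identical to the others. TATATAA, searched on both strands, was in 7 of the 8 windows and in 3.24% of all 32851 promoters. The looser D-box TTATGNAA was in 5 of the 8, those of Mup7, Mup10, Mup17, Mup18 and Mup19, and in 3.38% of all promoters; the exact TTATGTAA was in none of the 8 and in 0.938% of all. The windows of Mup3, Mup4 and Mup21 held neither form. A STAT-type site (TTCNNNGAA, 8.3% of promoters), CACGTG (7.15%), TTGCNNAA (10.8%), ATTGATC (1.35%) and GTTAAT (7.1%) matched none of the 8. Unlike the D-box, none of these was also searched in a looser form. Because the copies descend from each other, these matches are not independent.

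Mup3 dominated the family in every library. Per kb of exon it averaged 16150 CPM in vehicle livers of batch 2, ahead of Mup7 at 5234, Mup20 at 3462, Mup17 at 2411 and Mup21 at 785 CPM per kb. The remaining 5 members were far lower, between 3.75 CPM per kb for Mup10 and 37.8 CPM per kb for Mup18. The 10 members together took 2.43% to 3.07% of all counts in those 4 libraries. The sum averaged 9951 ± 2484 CPM in FSTL3 livers, 28603 ± 4925 CPM in FCN2 livers, 26505 ± 9534 CPM in EPDR1 livers and 28736 ± 2607 CPM in vehicle livers of batch 2 (SD, n = 4 each). It averaged 11094 ± 8369 CPM in LBP livers (SD, n = 3) and 11606 ± 712 CPM in vehicle livers of batch 1 (SD, n = 4). FCN2, EPDR1 and the batch 2 vehicle thus formed a high tier, whose libraries overlap each other. By group mean, LBP, FSTL3 and the batch 1 vehicle formed a low one, in which FSTL3 and vehicle libraries overlap. LBP's overlap with them rests on replicate 2, the library poor in albumin, at 2053 CPM. LBP replicates 3 and 4, at 12657 and 18571 CPM, lay above every FSTL3 library (at most 11717 CPM) and every batch 1 vehicle library (at most 12602 CPM). LBP replicate 4 at 18571 CPM exceeded EPDR1 replicate 4 at 14641 CPM, so the tiers met at 1 library each.

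**Figure D1:**
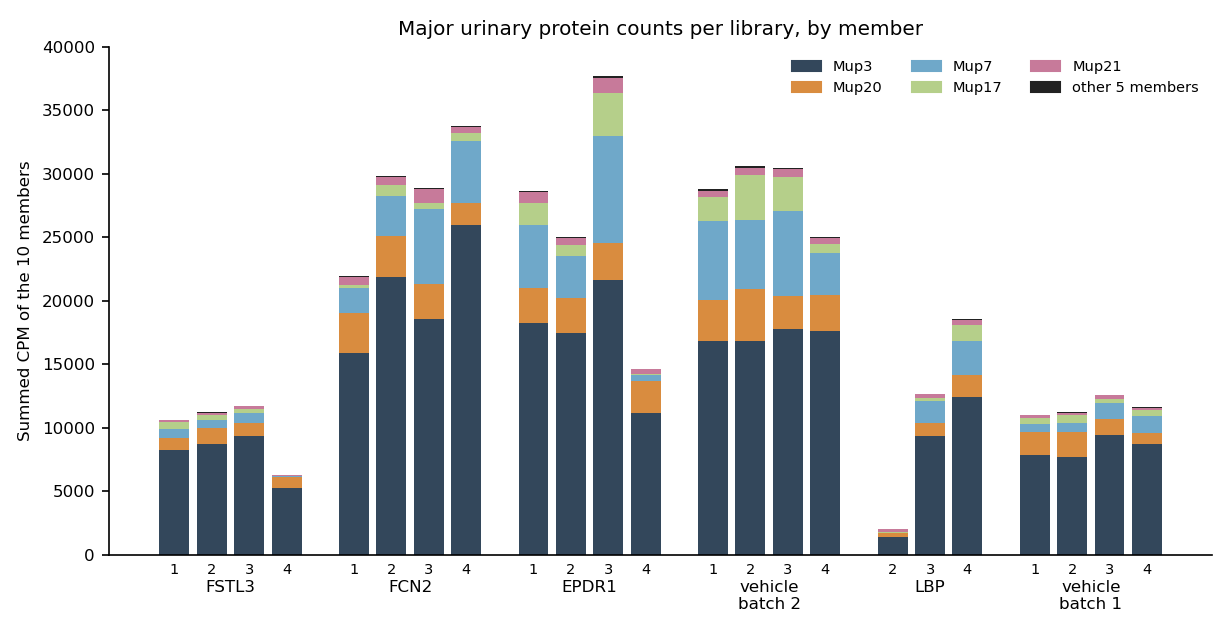
Summed CPM of the 10 Mup members in each of the 23 libraries (bars, numbered by replicate), stacked by member and grouped by treatment. The 4 FSTL3 bars stand between 6289 and 11717 CPM and the 4 bars of the batch 2 vehicle between 25036 and 30631 CPM; Mup3 is the largest block in every bar.

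FSTL3 livers had less of every Mup member than vehicle livers of the same batch. The sum was 10598, 11200, 11717 and 6289 CPM in the FSTL3 libraries, against 28781, 30631, 30497 and 25036 CPM in the vehicle libraries. The groups did not overlap. The log2 fold change of the sum was -1.53 ± 0.41 (SE; adjusted p = 0.00513, edgeR). An exact 2-sided permutation test over the 8 libraries gave p = 0.0286, the smallest it can give, and 0.0714 after adjustment over 5 such comparisons. All 10 members were called lower, where 16% of all genes tested were called lower and 39.2% were called in either direction. In all 10 every FSTL3 library lay below every vehicle library, where 23.8% of all genes tested lay lower without overlap. Without LBP replicate 2 in the fit, which all comparisons share, again all 10 were called, with 56.8% of all genes. The sum was then -1.54 ± 0.22 (adjusted p = 1.42e-06, edgeR), with a smaller SE. The median member changed by -3.27 on the log2 scale, against 0.06 for all genes tested; Mup10, whose fitted value rests on 0 counts in FSTL3 livers, lies beyond the median either way.

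Mup3, Mup20 and Mup21 fell least. Mup3 had 8272, 8686, 9353 and 5276 CPM in FSTL3 livers and 16810, 16810, 17752 and 17618 CPM in vehicle livers, a log2 fold change of -1.13 ± 0.40 (adjusted p = 0.0272). Mup20 had 939, 1253, 1049 and 868 CPM in FSTL3 livers and 3246, 4143, 2650 and 2812 CPM in vehicle livers, a change of -1.64 ± 0.36 (adjusted p = 0.00103). Mup21 had 121, 166, 210 and 107 CPM in FSTL3 livers and 493, 575, 591 and 466 CPM in vehicle livers, a change of -1.82 ± 0.33 (adjusted p = 0.000163). In each of these 3 genes every FSTL3 library lay below every vehicle library, and the spread within groups was small. Since Mup3 fell less than the rest, its share of the sum was 77.6% to 83.9% in FSTL3 livers and 54.9% to 70.4% in vehicle livers, with no overlap.

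Mup7, Mup17 and Mup18, copies of the middle of the cluster, fell further but varied more between livers. Mup7 had 686, 651, 736 and 26 CPM in FSTL3 livers and 6234, 5382, 6661 and 3351 CPM in vehicle livers, a log2 fold change of -3.36 ± 0.91 (adjusted p = 0.00535). Mup17 had 573, 438, 364 and 10.8 CPM in FSTL3 livers and 1893, 3593, 2729 and 724 CPM in vehicle livers, a change of -2.69 ± 0.94 (adjusted p = 0.0267). Mup18 had 5.97, 4.78, 4.16 and 0.667 CPM in FSTL3 livers and 32.1, 45.1, 47.3 and 16 CPM in vehicle livers, a change of -3.18 ± 0.61 (adjusted p = 0.000277). FSTL3 replicate 4 was the lowest library of its group for all 3 genes, and in none of them did the groups overlap.

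Mup4, Mup8, Mup10 and Mup19 were close to absent in FSTL3 livers. Mup19 had 0, 0.782, 0.0904 and 0.167 CPM there (12 counts in all) and 38.3, 51.5, 36.1 and 25.7 CPM in vehicle livers (1447 counts), a log2 fold change of -7.07 ± 0.61 (adjusted p = 1.8e-08). Mup8 had 0.0919, 0, 0.362 and 0.0834 CPM in FSTL3 livers (6 counts) and 11.2, 10.3, 10.4 and 9.37 CPM in vehicle livers (323 counts), a change of -6.07 ± 0.55 (adjusted p = 2.74e-08). Mup4, known from nasal and other secretory tissue as well as liver, had 0.551, 0.521, 0.542 and 0.0834 CPM in FSTL3 livers (19 counts) and 14.7, 16.6, 14.5 and 10.1 CPM in vehicle livers (487 counts), a change of -5.00 ± 0.52 (adjusted p = 1.67e-07). Mup10 had no count in any FSTL3 library and 7.22, 4.41, 5.40 and 3.82 CPM in vehicle livers (150 counts, adjusted p = 1.03e-06). Set against a floor of 3 counts over the 4 FSTL3 libraries, 0.0660 CPM, the mean of 5.21 CPM in vehicle livers makes Mup10 at least 79.0-fold lower in FSTL3 livers. The floor covers counting error only.

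**Figure D2:**
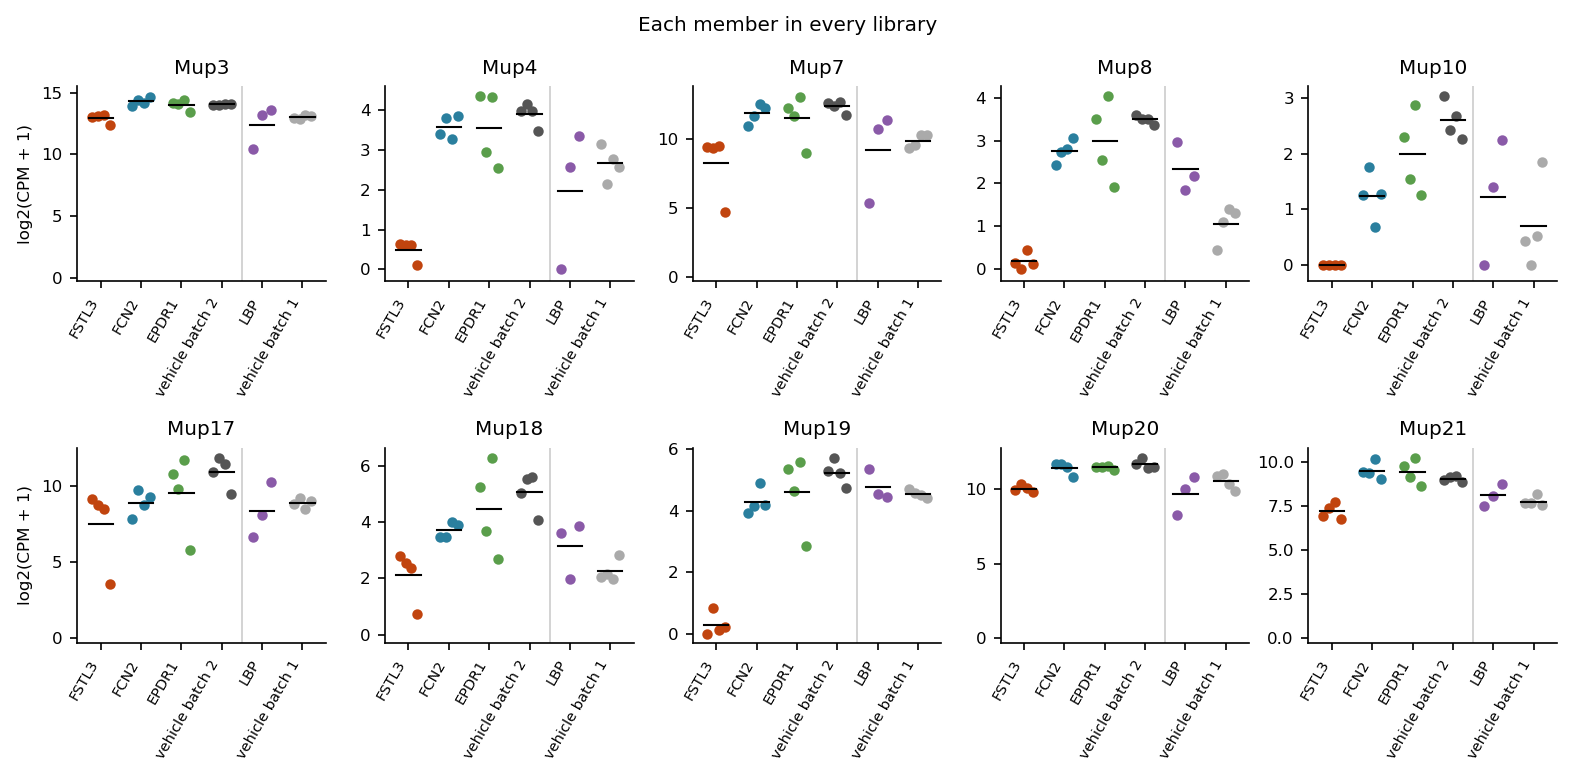
Level of each Mup member, as log2(CPM + 1), in every library of the 6 groups; points are libraries and bars are group means. FSTL3 livers lie below the batch 2 vehicle in all 10 panels, and Mup10 has no count in any of the 4 FSTL3 libraries.

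The size of the FSTL3 difference depended on whether gene length was corrected for and on which vehicle was used. With each library's trend with exon length removed, 6 of 10 members were called (26.7% of all genes called) and the sum moved to -0.73 ± 0.44 (adjusted p = 0.244). Mup3 (-0.36, adjusted p = 0.583), Mup17 (-1.90, 0.151), Mup20 (-0.82, 0.128) and Mup21 (-0.86, 0.0724) lost their calls. Mup4 (-4.21, adjusted p = 6.07e-06), Mup8 (-5.33, 4.55e-07), Mup10 (adjusted p = 9.99e-06), Mup19 (-6.34, 1.59e-07), Mup18 (-2.38, 0.00654) and Mup7 (-2.61, 0.0377) kept theirs. Against the vehicle livers of batch 1, the sum was -0.22 ± 0.40 (adjusted p = 0.718) and only Mup4 (-3.72), Mup8 (-3.07), Mup10 and Mup19 (-6.30) were called, where 31.9% of all genes were. Every FSTL3 library lay below every batch 1 vehicle library for Mup19, at most 0.782 CPM against 20.4 to 25.1 CPM, and for Mup4. The share of all genes without overlap was not counted for this comparison, so these cases have no background beside them. Mup8 overlapped, with 0.362 CPM in 1 FSTL3 library and 0.353 CPM in 1 vehicle library, and so did Mup10, with 0 in 1 vehicle library. Mup10 was at least 12.9-fold lower than in the batch 1 vehicle by the same floor, and 9 of the 14 vehicle counts came from replicate 4. Mup18 differed by -0.000604 ± 0.89 there (adjusted p = 1.00). Calls for Mup3 were lost without FSTL3 replicate 4 (-0.97, adjusted p = 0.0877) or vehicle replicate 3 (-1.11, 0.0511), and for Mup17 without FSTL3 replicate 3 or 4 or vehicle replicate 2 or 3 (adjusted p between 0.05003 and 0.0700). Mup3 also lost its call with limma-voom (-1.16, adjusted p = 0.0514), and Mup17 without the filter on low counts (-2.68, 0.0805) or in the fit of the 8 libraries alone (-2.76, 0.0712).

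**Figure D3:**
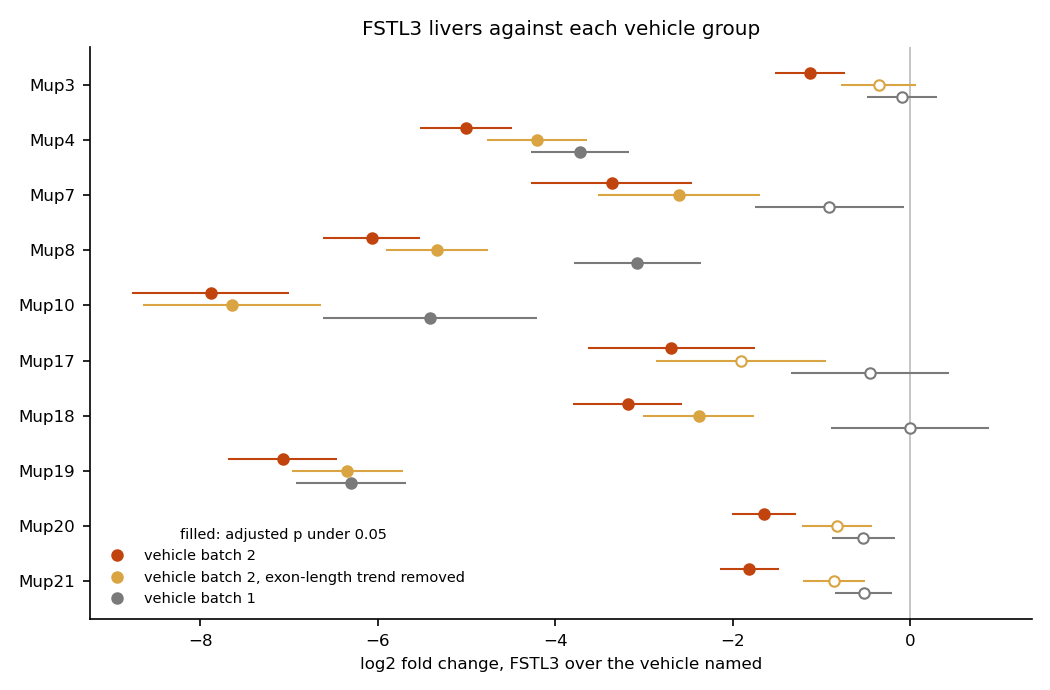
Log2 fold change (± SE) of each Mup member in the 4 FSTL3 livers over the 4 vehicle livers of batch 2, the same with each library's exon-length trend removed, and over the 4 vehicle livers of batch 1; filled points have an adjusted p under 0.05. Mup4, Mup8, Mup10 and Mup19 are filled and left of -3 in all 3, and Mup3, Mup17, Mup20 and Mup21 are filled in the first alone. Mup10's position is a fitted value over 0 counts in FSTL3 livers.

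The Mup sum did not differ detectably between FCN2 livers and their vehicle, while calls of single members depended on the fit. The sum was 21931, 29818, 28896 and 33768 CPM in FCN2 livers, against 28781, 30631, 30497 and 25036 CPM in vehicle livers, a log2 fold change of -0.01 ± 0.40 (adjusted p = 0.997). No member was called, while 5 had an unadjusted p under 0.05 and 0.81% of all genes were called; DESeq2 called Mup10 alone (adjusted p = 0.0440), with 6.37% of all genes. The lowest adjusted p was 0.101, for Mup10, with 1.4, 2.4, 0.598 and 1.41 CPM in FCN2 livers and 7.22, 4.41, 5.40 and 3.82 CPM in vehicle livers (-1.86 ± 0.56). Mup17 had 222, 840, 427 and 620 CPM in FCN2 livers and 1893, 3593, 2729 and 724 CPM in vehicle livers (-2.08 ± 0.92, adjusted p = 0.246). Mup8, Mup10 and Mup18 did not overlap between the groups and were lower in FCN2 livers, where 9.48% of all genes tested lay lower without overlap. With the length trend removed no member was called (1.14% of all genes), and without LBP replicate 2 in the fit 1 was (18.9%). In the fit without LBP replicate 2 the sum was -0.008 ± 0.21 (adjusted p = 0.989, edgeR). Against the batch 1 vehicle, 3 members were called, all higher in FCN2 livers (35.4% of all genes called). As a share of the sum, Mup17 was 1.01% to 2.82% in FCN2 livers and 2.89% to 11.7% in vehicle livers, and Mup8, Mup10, Mup18 and Mup19 also took a lower share in every FCN2 library; the mix itself was not tested. A fit to the 8 libraries compared called Mup8, Mup10, Mup18 and Mup19 lower, with adjusted p between 0.0115 and 0.0201, where that fit called 13.9% of all genes.

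EPDR1 livers did not differ detectably from their vehicle. The sum was 28674, 25018, 37687 and 14641 CPM in EPDR1 livers and 28781, 30631, 30497 and 25036 CPM in vehicle livers, a log2 fold change of -0.12 ± 0.40 (adjusted p = 1.00). No member was called and none had an unadjusted p under 0.05, where 0% of all genes tested were called. Member changes ran between -0.58 and 0.51, and CPM values overlapped between the groups for all 10. Leaving LBP replicate 2 out of the fit gave -0.12 ± 0.21 for the sum (adjusted p = 0.910, edgeR). Against the batch 1 vehicle, 4 members were called, all higher in EPDR1 livers (21.9% of all genes called). Without overlap in the batch 2 comparison lay 1.91% of all genes lower and 2.31% higher. The sum spread more between EPDR1 livers than in the other groups of batch 2. Mup17 had 1741, 904, 3320 and 55.1 CPM and Mup7 had 4899, 3268, 8438 and 510 CPM in its 4 libraries. Replicate 4 was the lowest for all 10 members, while its Mup20, at 2465 CPM, was close to the 2746 to 2947 CPM of the other 3.

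**Figure D4:**
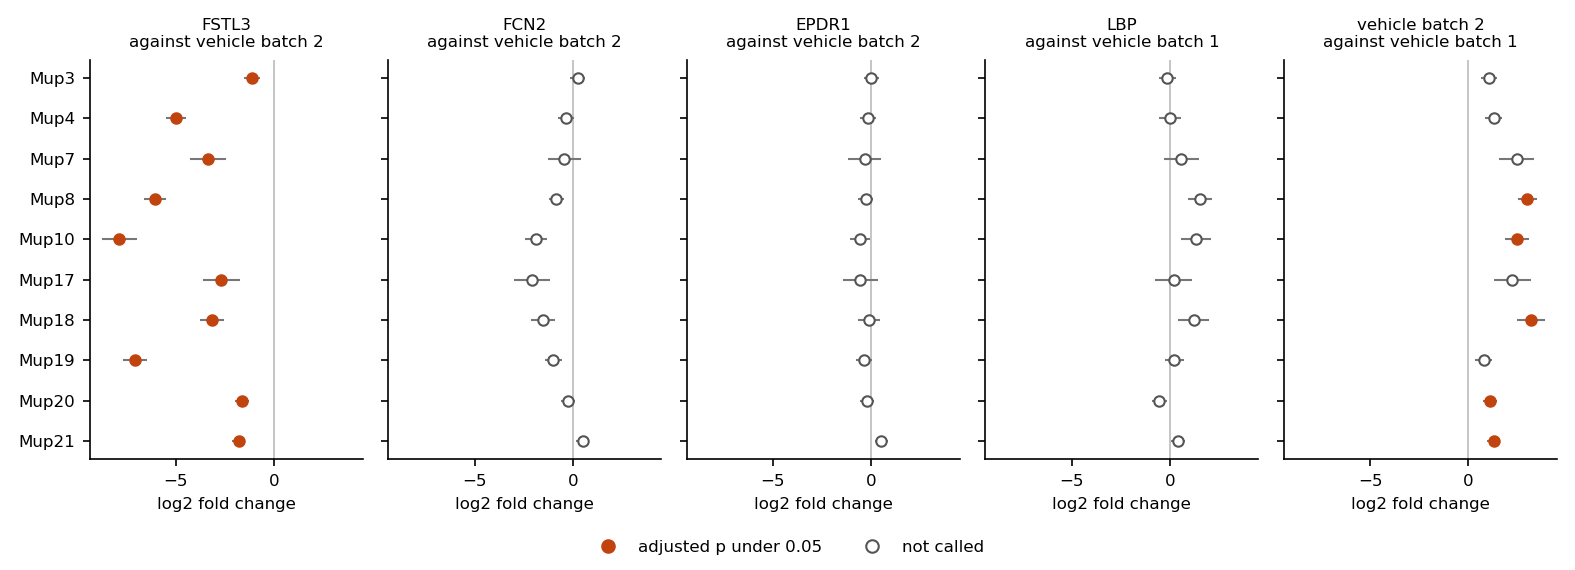
Log2 fold change (± SE) of the 10 Mup members in the 5 comparisons, from edgeR's fit over the 23 libraries; filled points have an adjusted p under 0.05. All 10 are filled and left of 0 for FSTL3, none is filled for FCN2, EPDR1 and LBP, and 5 are filled and right of 0 for the batch 2 vehicle over the batch 1 vehicle.

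Set directly against the other proteins of batch 2, FSTL3 livers were lower. The sum in FSTL3 livers changed by -1.52 ± 0.41 relative to FCN2 livers (adjusted p = 0.00462) and by -1.41 ± 0.41 relative to EPDR1 livers (adjusted p = 0.00825). Of the members, 9 were called lower than in FCN2 livers, where 18.4% of all genes were called lower, and Mup17 was not (-0.61, adjusted p = 0.607). Also 9 were called lower than in EPDR1 livers, where 18% of all genes were, and again Mup17 was not (-2.12, adjusted p = 0.0679). FCN2 and EPDR1 livers differed by 0.11 ± 0.40 in the sum (adjusted p = 0.956), with no member called, 2 at an unadjusted p under 0.05 and 0% of all genes called. With the exon-length trend removed, FSTL3 differed by -0.85 from FCN2 (adjusted p = 0.140) and by -0.55 from EPDR1 (adjusted p = 0.366). Without LBP replicate 2 in the fit these differences were -1.53 ± 0.22 (adjusted p = 1.36e-06, edgeR) and -1.42 ± 0.22 (4.24e-06).

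In the sum, the vehicle livers of the 2 batches differed about as much as FSTL3 and its vehicle. The median member differed less, by 1.76 on the log2 scale, against -3.27 with FSTL3. The sum was 28781, 30631, 30497 and 25036 CPM in vehicle livers of batch 2 and 11000, 11203, 12602 and 11617 CPM in vehicle livers of batch 1, with no overlap. Its log2 fold change, batch 2 over batch 1, was 1.31 ± 0.41 (adjusted p = 0.0390), and the exact 2-sided permutation p over 8 libraries was 0.0286, the smallest possible (0.0714 adjusted over 5). Leaving out any 1 of these 8 libraries ended the call, with values between 1.28 and 1.37 and adjusted p between 0.0625 and 0.0913. In the fit of these 8 libraries alone the change was 1.31 ± 0.11 (adjusted p = 3.68e-07), with all 10 members and 39.9% of all genes called. DESeq2 called 8 members and 17.6% of all genes. With the exon-length trend removed it was 0.97 ± 0.44 (adjusted p = 0.165), with 3 members called (10.9% of all genes). Without LBP replicate 2 in the fit, 8 members were called (30.3% of all genes), and the sum differed by 1.31 ± 0.22 (adjusted p = 6.4e-05, edgeR).

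Of the members, 5 were called higher in vehicle livers of batch 2, where 5.41% of all genes tested were called higher and 12.2% were called in either direction. Mup18 had 32.1, 45.1, 47.3 and 16 CPM in batch 2 and 3.18, 3.42, 2.92 and 6.12 CPM in batch 1 (3.18 ± 0.69, adjusted p = 0.00486). Mup8 had 11.2, 10.3, 10.4 and 9.37 CPM in batch 2 and 0.353, 1.14, 1.62 and 1.46 CPM in batch 1 (2.99 ± 0.49, adjusted p = 0.000529). Mup10 (2.47 ± 0.63, adjusted p = 0.0151), Mup21 (1.29 ± 0.33, 0.0134) and Mup20 (1.12 ± 0.36, 0.0447) were the others. The call of Mup10 was lost without batch 1 replicate 3 (1.93, adjusted p = 0.0974), and that of Mup20 in 18 of the 23 fits that leave out 1 library (adjusted p up to 0.142). In all 10 members every batch 2 library lay above every batch 1 library, where 15.9% of all genes tested lay higher without overlap. Mup19 differed least: it had 38.3, 51.5, 36.1 and 25.7 CPM in batch 2 and 25.1, 22.8, 21.7 and 20.4 CPM in batch 1 (0.77 ± 0.43, adjusted p = 0.254). As a share of the sum, Mup7 was 13.4% to 21.8% in batch 2 and 5.78% to 11% in batch 1, and Mup19 was lower, at 0.103% to 0.168% in batch 2 and 0.172% to 0.228% in batch 1. Batch and any difference in handling between the vehicle groups cannot be told apart.

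The Mup sum did not differ detectably between LBP livers and their vehicle, and LBP libraries spread widely. The sum was 2053, 12657 and 18571 CPM in LBP replicates 2, 3 and 4, and 11000, 11203, 12602 and 11617 CPM in vehicle livers of batch 1. The log2 fold change was -0.06 ± 0.44 (adjusted p = 0.963) and the exact 2-sided permutation p was 0.857, where 3 against 4 libraries cannot go below 0.0571. Without replicate 2, the library poor in albumin, it was 0.43 ± 0.26 (adjusted p = 0.473). No member was called with all 3 libraries, 1 had an unadjusted p under 0.05, and 7.7% of all genes were called; without replicate 2 again none was, and 0.727% of all genes were. With the length trend removed none was either (10.6% of all genes), and against the batch 2 vehicle 1 was, Mup20 (-1.64, lower in LBP livers; 12.9% of all genes). Mup8 had 6.80, 2.6 and 3.5 CPM in LBP livers and 0.353, 1.14, 1.62 and 1.46 CPM in vehicle livers, without overlap (1.52 ± 0.61, adjusted p = 0.132; 1.24, adjusted p = 0.381 without replicate 2). Here 4.62% of all genes tested lay higher without overlap. Mup7 had 40.8, 1720 and 2671 CPM in LBP livers and 636, 769, 1268 and 1277 CPM in vehicle livers (0.58 ± 0.89, adjusted p = 0.761). Mup19, at 39.7, 22.1 and 21 CPM in LBP livers and 20.4 to 25.1 CPM in vehicle livers, was highest in the library poor in albumin. The LBP response exceeded the FSTL3 response by 1.47 ± 0.59 in the sum (adjusted p = 0.0622) and by 1.96 ± 0.33 without LBP replicate 2 (adjusted p = 4.73e-05), each response being taken against its own vehicle.

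Within groups the members did not move as 1 block. The SD of log2(CPM + 1) among the vehicle livers of batch 2 was 0.04 for Mup3, 0.10 for Mup8, 0.17 for Mup21 and 0.29 for Mup20, and 0.45 for Mup7, 0.70 for Mup18 and 1.01 for Mup17. In EPDR1 livers it was 0.11 for Mup20, 1.76 for Mup7 and 2.59 for Mup17, whose highest library had 60.2 times the level of its lowest. In FSTL3 livers it was 0.23 for Mup20, 2.34 for Mup7 and 2.64 for Mup17. In the vehicle livers of batch 1 Mup17 was even, with an SD of 0.30, between 351 and 579 CPM. After each group's mean was subtracted, log2 CPM over the 22 libraries without LBP replicate 2 correlated at 0.89 between Mup7 and Mup17, 0.84 between Mup17 and Mup18, 0.84 between Mup3 and Mup7 and -0.20 between Mup8 and Mup20. These are descriptions, since the points share library, depth and, for the central copies, sequence.

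Most other Mup rows that were tested fell in FSTL3 livers too, and most were higher in the batch 2 vehicle than in the batch 1 vehicle. Of the other Mup and Mup pseudogene rows, 16 passed the filter, and 14 of these were called lower in FSTL3 livers than in vehicle livers of batch 2; Mup2 (-1.12, adjusted p = 0.0552) and Mup-ps13 (-0.93, 0.0694) were not. This stands beside 16% of all genes called lower. Between the vehicles 12 of the 16 were called higher in batch 2, beside 5.41% of all genes; Mup11 changed by -2.13 with FSTL3 and by 2.13 between the vehicles, and Mup14 by -1.95 and 1.97. The comparisons share the batch 2 vehicle. Rows that average at least 10 CPM were Mup11, which averaged 601 CPM in FSTL3 livers and 2631 CPM in vehicle livers, Mup14 (91.6 and 354 CPM), Mup16 (27.2 and 323 CPM), Mup12 (41.9 and 124 CPM), Mup6 (4.65 and 105 CPM), Mup1 (5.24 and 62.5 CPM) and Mup9 (9.05 and 59.1 CPM). The pseudogene rows Mup-ps22 (0.555 CPM in FSTL3 livers and 48.9 CPM in vehicle livers) and Mup-ps18 (1.55 and 38.9 CPM) belong here too. The sum over all 49 rows changed by -1.60 ± 0.42 with FSTL3 (adjusted p = 0.00398), and the 10 members held 83.9% to 98.1% of it in every library. Without Mup3 the sum of the other 9 members changed by -2.48 ± 0.49 (adjusted p = 0.000345).

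Genes of the pathways known to act on Mup transcription were read from lists of known members. Counts from these and the following lists stand beside 39.2% of all genes called with FSTL3 (16% lower) and 12.2% between the vehicles (5.41% higher). Of 10 genes of growth hormone signalling none was called in FSTL3 livers: Ghr, the receptor, changed by -0.07 ± 0.40, Stat5b by -0.19 ± 0.32 and Jak2 by 0.63 ± 0.32 (adjusted p between 0.119 and 0.910), with Igfals at 0.56 (0.0565) and Stat5a at -0.34 (0.221). Between the vehicles Igf1 was higher in batch 2 (0.75 ± 0.24, adjusted p = 0.0472), while Cish (-1.59, 0.211) and Igfals (-0.63, 0.0794) were not called. Zhx2 changed by -0.19 ± 0.25 in FSTL3 livers (adjusted p = 0.585) and by -0.54 ± 0.26 between the vehicles (adjusted p = 0.192). Of 13 liver transcription factors, 5 rose and 1 fell in FSTL3 livers, Ppara (1.96), Nr3c1 (0.73) and Foxa2 (-0.95) having the smallest p, and 5 were lower in vehicle livers of batch 2, among them Cebpb (-2.79), Rxra (-1.06) and Ppara (-1.51). The FSTL3 count is close to the share over all genes. Hnf4a changed by -0.11 ± 0.31 (adjusted p = 0.810) and Onecut1 by -0.16 ± 1.07 (adjusted p = 0.922) in FSTL3 livers.

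Of 16 other male-biased liver genes, 7 fell in FSTL3 livers and none rose, with a median of -0.997; Elovl3, a fatty acid elongase (-1.38 ± 0.25), the P450 Cyp4a12b (-1.54 ± 0.37) and the glucuronosyltransferase Ugt2b38 (-3.03 ± 0.62) had the smallest p. Between the vehicles 6 of the 16 were higher in batch 2 and none lower, with a median of 1.17, among them Elovl3 (1.72 ± 0.26), Gstp1 (1.59 ± 0.33) and Ugt2b38 (2.72 ± 0.67). Of 17 female-biased genes 6 were tested; in FSTL3 livers 3 rose, with Acot3 (3.07) and Tox (1.55) among them, and Cyp3a16 fell (-2.18), and between the vehicles Acot3 was lower in batch 2 (-3.38). Of 8 liver lipocalins tested, 6 fell in FSTL3 livers, with Orm2 at -3.84, Orm1 at -2.11 and Rbp4 at -1.45, and none was called between the vehicles. Of 24 secreted liver proteins 12 fell in FSTL3 livers (Serpina1e -1.46, Fetub -1.46, Fgg -1.42) and none was called between the vehicles.

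Clock genes differed in both comparisons and are given beside the Mup values because the hour of collection is not labelled. Of 10 genes of the Per and Dbp arm, 7 rose in FSTL3 livers (Per3 3.48, Per1 2.11, Tef 1.87) and 7 were lower in vehicle livers of batch 2 than of batch 1 (Per3 -2.68, Per1 -2.76, Tef -1.69). Of 5 genes of the Bmal1 arm, 4 fell in FSTL3 livers (Arntl -2.89, Npas2 -3.23, Nfil3 -2.05) and 4 were higher in vehicle livers of batch 2 (Arntl 3.31, Npas2 4.79, Clock 0.71). These 2 comparisons share the batch 2 vehicle. The part of the clock genes in the Mup differences was not tested.

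The summed level of 8 hepatocyte markers was 77638 to 93254 CPM in FSTL3 livers and 88529 to 97638 CPM in vehicle livers of batch 2, with 1 of 8 called lower. In LBP livers it was 30251 to 101912 CPM, with a median of 98713 CPM, and in vehicle livers of batch 1 84875 to 102390 CPM. Kupffer cell markers, 8 genes, summed to 120 to 132 CPM in FSTL3 livers and 156 to 416 CPM in vehicle livers, with 5 called lower. Sinusoidal endothelial markers, 8 genes, summed to 512 to 621 CPM in FSTL3 livers and 196 to 250 CPM in vehicle livers, with 4 called higher; between the vehicles 4 were called lower in batch 2, at 196 to 250 CPM against 276 to 371 CPM in batch 1. Of 8 stellate cell markers 2 were called higher and 1 lower, and of the few tested for cholangiocytes (3), adipocytes (1) and muscle (3) 1 each was called lower. Pancreatic acinar markers, none of 9 called, summed to 5.75 to 11.8 CPM in FSTL3 livers, with 6 of 10 at 0, and 17 to 43.8 CPM in vehicle livers. In LBP livers they had a median of 799 CPM and reached 1751 CPM, with 5 called higher than in the batch 1 vehicle. That count comes from the fit with LBP replicate 2, and the count without it is not given here. The part of these markers in the Mup values was not tested.

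The genes whose log2(CPM + 1) followed the Mup sum most closely over the 23 libraries, out of 8755 genes averaging 5 CPM or more, were Hsd17b2 (Pearson r = 0.97), Akr1c20 (0.97), Akr1c6 (0.96), Sec11a (0.96) and Rad23b (0.95). Hsd17b2, Akr1c20 and Akr1c6 encode enzymes that act on steroids, and Sec11a a subunit of the signal peptidase. After each group's mean was subtracted the closest were Dmgdh (0.97), Kmo (0.96), Plbd1 (0.95), Cipc (0.95) and Fig4 (0.95). Without LBP replicate 2 these 10 values ran between 0.89 and 0.94. They describe these libraries, which share normalisation and differ in depth.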

How the data were processed

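Gene counts of 23 mouse liver libraries were analysed. Per the labels' protocols, libraries were made from total RNA with a KAPA Hyper-prep kit and sequenced as paired 50-base reads. Per the submitters' processing notes, reads were aligned with STAR 2.6.0c to GRCm38 and counted with featureCounts 1.6.3. The deposited counts are raw read counts per gene, summed by the authors over exons of Ensembl release 95, per the file headers; no strand or multi-mapping option is recorded there, so reads shared by near-identical Mup copies may be dropped or misplaced, and antisense reads cannot be told apart. Symbols came from a reference table of gene names (54723 of 54838 IDs matched).

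The main test was edgeR 4.0.16 (R 4.3.3): filterByExpr, TMM, a robust quasi-likelihood fit with 1 mean per group, and Benjamini-Hochberg adjustment over 11969 genes. The Mup sum was tested by replacing the 10 member rows with their total, and by an exact permutation test on log2 CPM. The edgeR step was tested on simulated counts. Alternatives were DESeq2 1.42.0, limma-voom 3.58.1, other scalings, filters and controls, a replicate block and leaving out each library. Replicate numbers were not treated as pairs in the main test. Same-numbered pairs correlated between -0.128 and 0.212, and in no comparison did every such pair correlate above 0.1. Pairs with different numbers were not compared, so this check cannot exclude pairing. No 2 libraries of a group agreed within sampling noise. Totals of 773499 to 21892416 counts set the precision, so members under 10 CPM rest on few counts. Named genes were the 10 members, other Mup rows averaging at least 10 CPM, the 5 genes most like the sum, the 3 smallest p of each list in the FSTL3 and vehicle comparisons, and Zhx2, Stat5b, Ghr, Hnf4a and Onecut1. Mup2, Mup-ps13 and Mup-ps16 were named after their values were seen. Members and lists were chosen with earlier results of these data known.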

Additional observations from a re-analysis of the deposited data

Results flagged for a closer look

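Some single libraries lay far from the rest of their group. Of 54 groups of 4 libraries tested by Dixon's rule, 5 passed the 95% critical value, and chance passes about 1 in 20. In FSTL3 replicate 4, Mup4 had 0.0834 CPM, with the next library at 0.521 CPM. In the same library Mup7 had 26 CPM, with the next at 651 CPM. In vehicle livers of batch 1, Mup10 had 2.62 CPM in replicate 4, with the next at 0.433 CPM. Mup18 had 6.12 CPM there, with the next at 3.42 CPM. Mup21 had 286 CPM in replicate 3 of that group, with the next at 200 CPM.

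Among Mup rows outside the 10 members and with over 3 counts in the group, 2 cases had every library of a group above every library of its vehicle. The search covered 12 other Mup genes and 27 pseudogene rows in the comparison of each protein. With LBP, 4.62% of all genes tested lay higher without overlap, and the share with FSTL3 is not given here. Mup12 averaged 65.3 CPM in LBP livers, where the highest library of the batch 1 vehicle had 50.1 CPM; its log2 fold change was 0.81 ± 0.59 (adjusted p = 0.458, edgeR). Mup-ps16 averaged 0.179 CPM in FSTL3 livers, with 1 to 3 counts per library, and had no count in any library of the other groups.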

How the results depend on the processing

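The FSTL3 sum kept its direction under every alternative run and its call under all but 2 of 37. These were the exon-length trend removed (-0.73) and the other batch's vehicle as control (-0.22). Those 2 also left 6 and 4 members called (26.7% and 31.9% of all genes). The exact permutation test was counted by its unadjusted p, 0.0286 for FSTL3 and for the vehicle difference. Adjusted over 5 comparisons that test gave 0.0714 for both, which is not under 0.05. FSTL3 against FCN2 and EPDR1 lost their calls with the length trend removed (-0.85 and -0.55). The vehicle difference lost its call under limma-voom (1.31), no filter (1.33), the replicate block (1.31) and the length trend (0.97, 3 members called, 10.9% of all genes). It also lost its call when 1 of its 8 libraries was left out (range 1.28 to 1.37). Its member count was 8 with DESeq2, 10 in the fit of those 8 libraries, and 3 to 8 when leaving out 1 library; 8 stood without LBP replicate 2. All genes called were 17.6%, 39.9% and 7.17% to 30.3% in these fits. Members called for FCN2 were 1 with DESeq2 (6.37% of all genes) and 4 in the fit of the 8 libraries compared (13.9%). Against the other vehicle they were 3, all higher (35.4%). EPDR1 had 4 called against the other vehicle (21.9% of all genes) and LBP 1 (12.9%). The sums against the other vehicle were 1.3 (FCN2), 1.19 (EPDR1) and -1.37 (LBP). Leaving out 1 library gave 8 to 10 members for FSTL3, where 32.2% to 56.8% of all genes were called. It gave 0 to 1 for FCN2 (0% to 18.9%), 0 to 1 for LBP (0.727% to 17.4%) and 0 for EPDR1 (0% to 0.0084%).

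Sums near 0 changed sign. FCN2 was 0.0281 with DESeq2 or its size factors, 0.0057 with protein-coding genes alone and 0.12 with the length trend removed; leaving out 1 library gave -0.10 to 0.10. EPDR1 ran from -0.335 to 0.0851 and FCN2 against EPDR1 from -0.0915 to 0.328 in such fits. LBP was 0.0819 without Mup3, 0.46 without Mup3 and Mup20 (a choice made after seeing the data) and -0.67 to 0.43 leaving out 1 library. FCN2 against EPDR1 was -0.22 and -0.32 in those 2 sums. The LBP minus FSTL3 response was called with DESeq2 (1.47) or its size factors (1.47), without Mup3 (2.57) and without Mup3 and Mup20 (3.47), and ran from 0.90 to 1.96 leaving out 1 library. LBP minus FCN2 was 0.0511 over all Mup rows, 0.60 and 1.1 in the 2 reduced sums, and -0.65 to 0.44 leaving out 1 library. LBP minus EPDR1 was -0.45 with limma-voom, -0.0236 with the length trend removed, and -0.55 to 0.55 leaving out 1 library. The causes were not tested. The replicate block changed no other call of a sum. FSTL3 members called were 10 with the block, and the share of all genes called in that fit is not given here. Members with under 10 CPM rest on few counts per library, which limits their folds.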
